A study of Mus musculus with 76 samples.

Results

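The peptidylarginine deiminases Padi1, Padi2, Padi3 and Padi4 were followed in mouse tumours kept growing by 13 different introduced genes. The genes with the symbols Padi1 to Padi4 were taken, each with its probe set of highest mean, which is 4 of the 18194 genes on the array; each had exactly 1 probe set, and all 4 passed the filter on low values. The members were chosen by symbol, and the family was selected on the measured difference between MAP3K11 and the other groups, which for Padi4 was among the most negative of all genes. The members' own values in MAP3K11 against the other groups are therefore given as a description, with no test; other genes, near the cluster or on marker lists, were tested in that comparison. The C57BL/6 mice carried tumours of the directed complementation kind: an inducible HER2(V659E) oncogene drove them at first, doxycycline was withdrawn to silence it, and another construct was introduced to take over. The introduced genes were MAP3K11, the kinase of the 6 samples labelled with cachexia, and, in the other 70 samples, labelled as having none, ErbB3, FAK1, FGFR2aIIIb, FGFR2aIIIc, FGFR3, HER2, MAP3K7, PIP5K1B, RON+MSP, RONd160, RSK2 and TNK2. There were 4 arrays of FAK1 and 6 of every other group. Cachexia and MAP3K11 therefore cannot be told apart here. All groups share the withdrawn HER2 transgene and the strain; the promoter of that transgene, the vector of the introduced genes and the animals' ages are not given in the sources used here.

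Peptidylarginine deiminases are calcium-dependent enzymes that turn arginine residues of proteins into citrulline, which removes a positive charge. PADI4 is the member with a nuclear localisation signal, acts on histones and is best known from neutrophils, where it takes part in the release of extracellular traps. PADI2 is the most widely expressed member, is found in muscle, brain and macrophages, and in mammary epithelium has been tied to estrogen signalling and to HER2-positive tumours. PADI1 and PADI3 are enzymes of the epidermis and the hair follicle, where filaggrin and trichohyalin are substrates, and PADI6 belongs to the oocyte and early embryo.

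The 5 genes stand side by side on mouse chromosome 4. In the RefSeq annotation of GRCm38.p6 they run in the order Padi6 (140727355 to 140742643), Padi4 (140745508 to 140774239), Padi3 (140785369 to 140810648), Padi1 (140812981 to 140845778) and Padi2 (140906336 to 140952586), a cluster of 225 kb. Because Padi2 and Padi4 turned out to move together while Padi3 followed another pattern, the promoter windows of those 3 genes are shown, from 250 bases before to 50 after the annotated start (RefSeq, GRCm38.p6), with capitals marking the motifs searched on both strands. The Padi4 window is chr4:140774154-140774453 (minus strand), the Padi2 window chr4:140906110-140906409 (plus strand) and the Padi3 window chr4:140810599-140810898 (minus strand). For Padi4 and Padi2 the start that places the window lies inside the gene span given above. Positions are counted from that start, and the TATA box marked in Padi4 lies within the gene's span.
Padi4: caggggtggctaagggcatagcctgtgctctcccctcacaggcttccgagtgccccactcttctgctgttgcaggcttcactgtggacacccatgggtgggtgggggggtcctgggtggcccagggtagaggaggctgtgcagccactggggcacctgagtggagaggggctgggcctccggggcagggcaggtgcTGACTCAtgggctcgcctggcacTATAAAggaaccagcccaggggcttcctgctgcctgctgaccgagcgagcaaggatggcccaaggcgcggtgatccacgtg
Padi2: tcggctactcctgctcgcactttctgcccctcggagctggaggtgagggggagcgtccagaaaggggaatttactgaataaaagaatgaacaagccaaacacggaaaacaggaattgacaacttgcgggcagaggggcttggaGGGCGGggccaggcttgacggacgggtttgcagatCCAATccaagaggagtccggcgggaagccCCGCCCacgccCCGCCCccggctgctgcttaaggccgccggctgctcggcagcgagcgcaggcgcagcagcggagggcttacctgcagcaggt
Padi3: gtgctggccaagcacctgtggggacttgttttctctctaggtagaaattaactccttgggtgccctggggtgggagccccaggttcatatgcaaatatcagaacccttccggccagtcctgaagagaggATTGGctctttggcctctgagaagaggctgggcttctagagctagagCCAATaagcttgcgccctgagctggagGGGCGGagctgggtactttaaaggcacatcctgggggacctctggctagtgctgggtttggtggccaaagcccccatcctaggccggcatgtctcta
In Padi4 the capitals mark an AP-1 motif, TGACTCA, at 54 to 48 bases before the start and a TATA box, TATAAA, at 31 to 26 bases before it. The AP-1 letters TGANTCA occur in 7.81% of 32851 such windows and TATAAA or its reverse in 13.6%. In Padi2 they mark 3 GC boxes, GGGCGG or its reverse CCGCCC, and 1 CCAAT box, which occur in 35.7% and 37.4% of windows. In Padi3 they mark 1 GC box and 2 CCAAT boxes, CCAAT or its reverse ATTGG. The window of Padi1 held none of the 4 motifs. The Padi2 window had 22 CpG dinucleotides and 63.3% G and C, the Padi4 window 8 and 66.3%, the Padi3 window 4 and 56.7%, and the Padi1 window 3 and 61.3%, beside a median of 7 CpG and 52.7% over all windows. The motif matches and base composition describe the sequences and were tied to no measurement.

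Values are log2 array signals as deposited by the authors, with medians between 5.45 and 5.56 in the 76 arrays. The low end was marked by the 40th percentile of each array, between 4.68 and 4.86, and by control probe sets for a bacterial gene at 2.95. Within every group the arrays were matched into pairs of like chromosome profile, 38 in all. The matching with the highest summed correlation was taken. The median correlation was 0.957 within pairs and 0.162 between other arrays of a group, a gap that the matching itself widens. Within pairs it ran from 0.470, in MAP3K11 (T2 replicate 1 and T3 replicate 2), to 0.992, in RONd160. The 2 arrays of every pair carry different T labels. The labels call the arrays biological replicates without naming animals or tumour lines. If the pairs share a source, arrays are not independent, so a gene was called only where limma's adjusted p was under 0.05 both with arrays as replicates and with the pairs as a random block, and the 2 adjusted p-values are given in that order. A p-value here reflects only how far these arrays spread, and part of that spread may be technical.

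Padi4 was high in nearly every tumour and at the bottom of the range in MAP3K11. In the 6 MAP3K11 arrays it read between 4.21 and 4.76 with a median of 4.29, and in the other 70 between 4.18 and 10.79 with a median of 9.60. None of the 6 MAP3K11 arrays lay above its 40th percentile. The MAP3K11 mean was 4.35 ± 0.21 (SD, n = 6), against 9.27 for the mean of the other 12 group means, a log2 difference of -4.91, or 30.2-fold lower. For scale, Padi6, the oocyte member, read between 3.98 and 4.70 in all arrays and was above the 40th percentile in 0 of them, so Padi4 in MAP3K11 was at the level of a gene that failed the filter, and the size of the fold is limited by that low end.

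Only 2 arrays outside MAP3K11 reached down to its range, and they formed 1 pair: ErbB3 T1 replicate 2 at 4.18 and ErbB3 T3 replicate 2 at 4.57. The other ErbB3 pairs read 9.14 and 9.25, and 7.53 and 8.01. One ErbB3 pair was thus as low as MAP3K11, another lay in between, and the third was near the other groups. In order of their means the groups ran FGFR2aIIIb 10.33, HER2 10.24, FAK1 9.88, FGFR2aIIIc 9.85, TNK2 9.67, RONd160 9.59, FGFR3 9.56, PIP5K1B 9.42, RON+MSP 8.83, MAP3K7 8.47, RSK2 8.28, ErbB3 7.11 and MAP3K11 4.35. All 12 neighbouring groups in this order overlapped in their arrays.

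**Figure D1:**
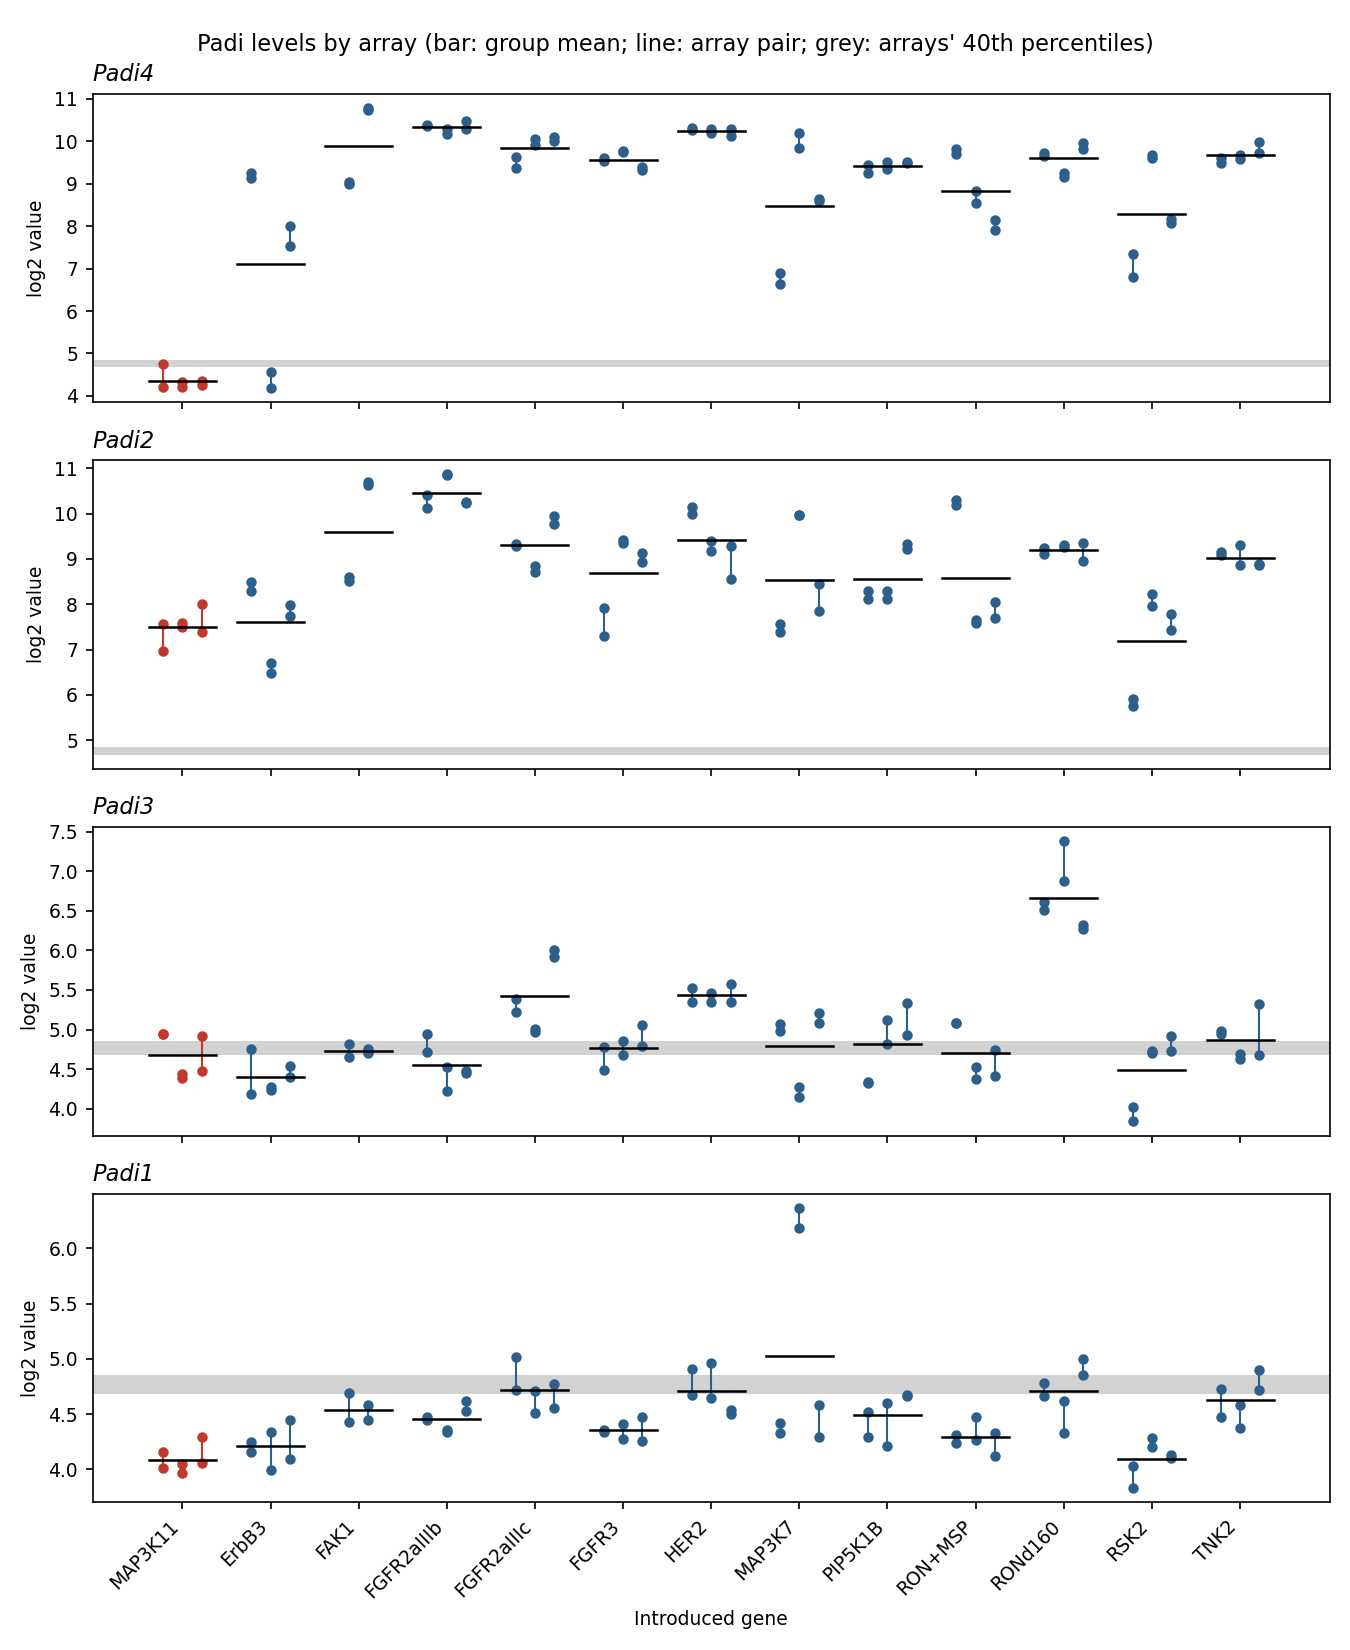
Log2 value of Padi4, Padi2, Padi3 and Padi1 in each array (vertical axes, 4 panels) by introduced gene (horizontal axis); points are arrays, thin lines join the 2 arrays of a pair, black bars are group means and the grey band spans the arrays' 40th percentiles. The 6 MAP3K11 arrays (red) lie at 4.21 to 4.76 for Padi4, beside the ErbB3 pair at 4.18 and 4.57, and the 6 RONd160 arrays lie above all others for Padi3.

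The spread of Padi4 inside a group followed the pairs. The SD was 0.15 within pairs, 0.99 between pairs of a group and 1.63 between groups. For every gene the SD between groups took in MAP3K11, on whose difference the family was selected. For Padi4 the MAP3K11 mean was 4.35, and the means of the other groups lay between 7.11 and 10.33. The value of 1.63 therefore does not show that the other groups differ more than pairs of a group do. The 3 MAP3K7 pairs read 6.90 and 6.64, 10.20 and 9.83, and 8.64 and 8.60. The 3 RSK2 pairs read 7.35 and 6.80, 9.60 and 9.68, and 8.07 and 8.17. The 2 FAK1 pairs read 8.99 and 9.03, and 10.79 and 10.73. By contrast the 6 arrays of HER2 lay between 10.12 and 10.30 and those of PIP5K1B between 9.25 and 9.52. Padi2 had the same kind of spread, 0.21 within pairs, 0.86 between pairs and 0.92 between groups. In Padi3 the 3 SDs were 0.17, 0.34 and 0.60, in Padi1 0.14, 0.33 and 0.28, and in Padi6 0.14, 0.09 and 0.06. Padi6, near background, varied no more between pairs than within them.

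Among the 12 groups without MAP3K11, which could be tested, all 4 members differed by limma's F test, and 36.4% of the 13868 genes tested did so too, so the call itself does not set the members apart. Padi1 and Padi3 passed the filter on low values only through part of the groups, with 10 arrays of 5 groups and 43 arrays of 12 groups above the 40th percentile. For Padi4 the adjusted p was 2.58e-06 and 3.13e-05, for Padi2 8.12e-07 and 2.29e-05, for Padi3 6.05e-14 and 1.08e-09, and for Padi1 0.000281 and 0.0121. With the mean of each pair as the unit, Padi4 (adjusted p = 0.0636) and Padi1 (adjusted p = 0.164) no longer passed.

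Each of these 12 groups was then set against the mean of the other 11, and 7 of the 48 tests on members were calls. The share of all genes called was 10.1% for ErbB3, 0.461% for FAK1, 1.64% for FGFR2aIIIb, 0% for FGFR2aIIIc, 0% for FGFR3, 8.49% for HER2, 10.3% for MAP3K7, 2.00% for PIP5K1B, 0.757% for RON+MSP, 9.40% for RONd160, 4.0% for RSK2 and 0.0577% for TNK2. In FGFR2aIIIc and FGFR3, where limma called no gene in both fits, 1825 and 1921 genes had an unadjusted p under 0.05 with arrays as replicates, and 128 and 60 passed after adjustment in that fit. The calls fell in ErbB3 (3 members), FGFR2aIIIb, MAP3K7, RONd160 and RSK2 (1 each).

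Padi4 was lower in ErbB3 tumours than in the other 11 groups, by limma -2.42 ± 0.38 (SE) on the log2 scale, adjusted p = 3.75e-06 and 2.83e-05. The difference was carried in large part by the low pair: without ErbB3 T1 replicate 2 and T3 replicate 2 it was -1.04, with adjusted p = 0.0392 and 0.148, and the call was lost. FGFR2aIIIb (1.14), HER2 (1.05) and RSK2 (-1.04) passed only with arrays as replicates, at adjusted p = 0.0427, 0.0338 and 0.0394. With the pairs as a block their adjusted p was 0.122, 0.0731 and 0.0964.

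**Figure D2:**
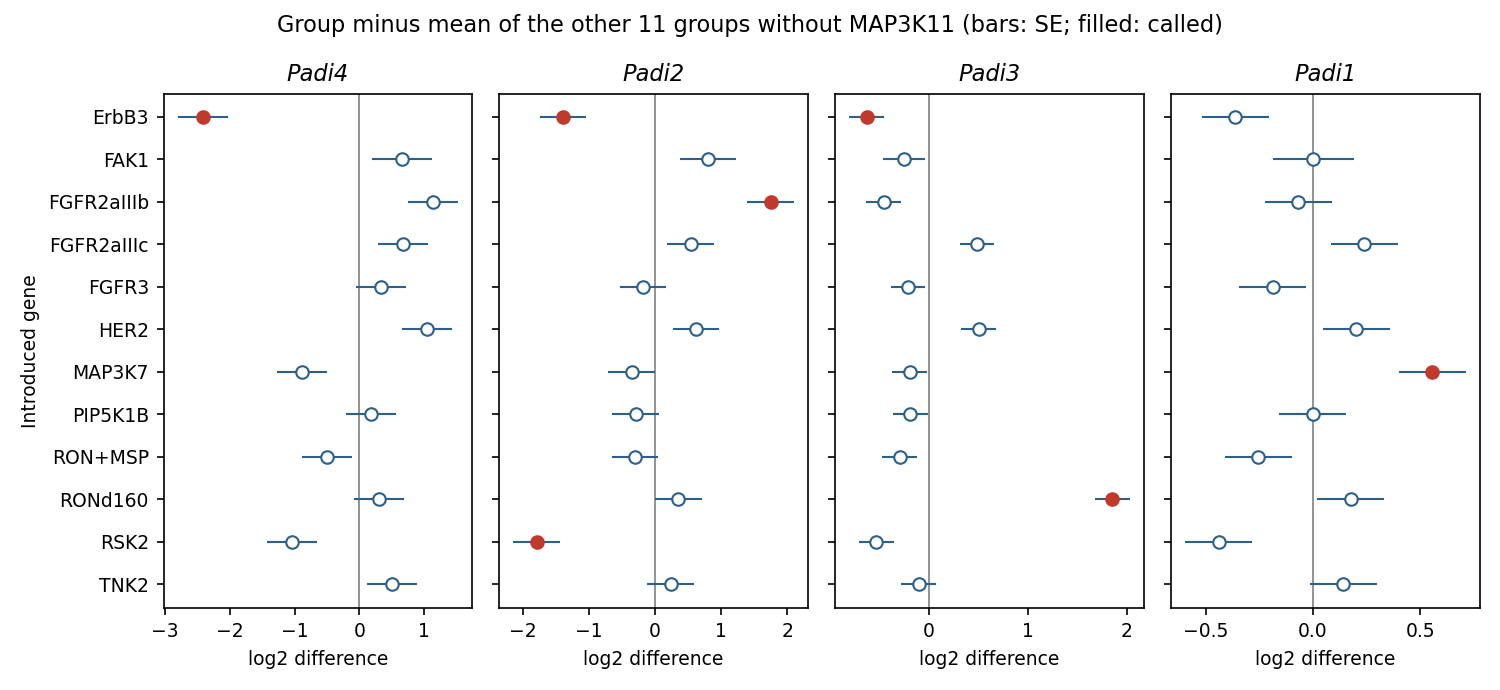
Fitted log2 difference of each of the 12 groups without MAP3K11 from the mean of the other 11 (horizontal axes) for the 4 members, by introduced gene (vertical axis); bars are 1 SE with pairs as a block and filled points are calls. The 7 filled points are ErbB3 for Padi4, Padi2 and Padi3, FGFR2aIIIb and RSK2 for Padi2, RONd160 for Padi3 and MAP3K7 for Padi1.

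Padi2, the broadly expressed member, was present throughout, with all 76 arrays above the 40th percentile. In MAP3K11 it read between 6.96 and 8.01 with a median of 7.53, and in the other 70 arrays between 5.75 and 10.87 with a median of 8.94. The MAP3K11 mean was 7.50 ± 0.34 (SD, n = 6) against 8.85, a log2 difference of -1.35, or 2.55-fold lower. The overlap was wide, since 17 of the 70 other arrays were at or below the highest MAP3K11 array.

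FGFR2aIIIb tumours had the highest Padi2, at 10.46 ± 0.32 (SD, n = 6), and RSK2 tumours the lowest, at 7.18 ± 1.08 (SD, n = 6), below MAP3K11. The FGFR2aIIIb arrays ran from 10.13 to 10.87 and differed from the other 11 groups by 1.75 ± 0.33 (SE), limma adjusted p = 0.000365 and 0.00259. Leaving out either the pair T1 replicate 1 and T2 replicate 1 or the pair T1 replicate 2 and T3 replicate 1 left it at 1.82 or 1.58 and ended the call with pairs as a block (adjusted p = 0.0507 and 0.0977). The RSK2 pairs read 5.91 and 5.75, 7.96 and 8.23, and 7.43 and 7.79, so 1 pair was far below the others. RSK2 differed by -1.79 ± 0.33 (SE), limma adjusted p = 0.00013 and 0.00286, and without the lowest pair by -1.12, adjusted p = 0.0606 and 0.352. ErbB3 was lower too, at 7.62 ± 0.83 (SD, n = 6) and a difference of -1.39 ± 0.33 (SE), limma adjusted p = 0.0014 and 0.00756. Without its low Padi4 pair, which read 6.48 and 6.71 for Padi2, that difference was -0.87 and no call (adjusted p = 0.15 and 0.376).

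Across tumours the levels of Padi2 and Padi4 went together. Over the 70 arrays outside MAP3K11 Pearson's r was 0.80 and Spearman's rho 0.83. Within groups r was 0.72, and over the 12 group means 0.86. Without the 2 arrays farthest from the median of Padi2, the RSK2 pair at 5.91 and 5.75, r was 0.78. The ErbB3 pair with low Padi4 was kept in that value. These are descriptions with no p, since the arrays share pairs and groups. That r stood at the 99.88th percentile of the r of all tested genes with Padi4. The other member pairs had r between 0.19 (Padi1 with Padi3) and 0.46 (Padi1 with Padi2); for Padi3 with Padi4 it was 0.29. Within groups the order of the pairs did not always match. The pair lowest in Padi4 was also the lowest in Padi2 in 6 of the 12 groups, ErbB3, FAK1, HER2, MAP3K7, PIP5K1B and RSK2. In FGFR2aIIIb, RONd160 and TNK2 it was the highest in Padi2, and in FGFR2aIIIc, FGFR3 and RON+MSP it was in between. In MAP3K11 Padi2 was at 6.96 to 8.01 with Padi4 at its floor, while the ErbB3 pair with Padi4 as low read 6.48 and 6.71 for Padi2.

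**Figure D3:**
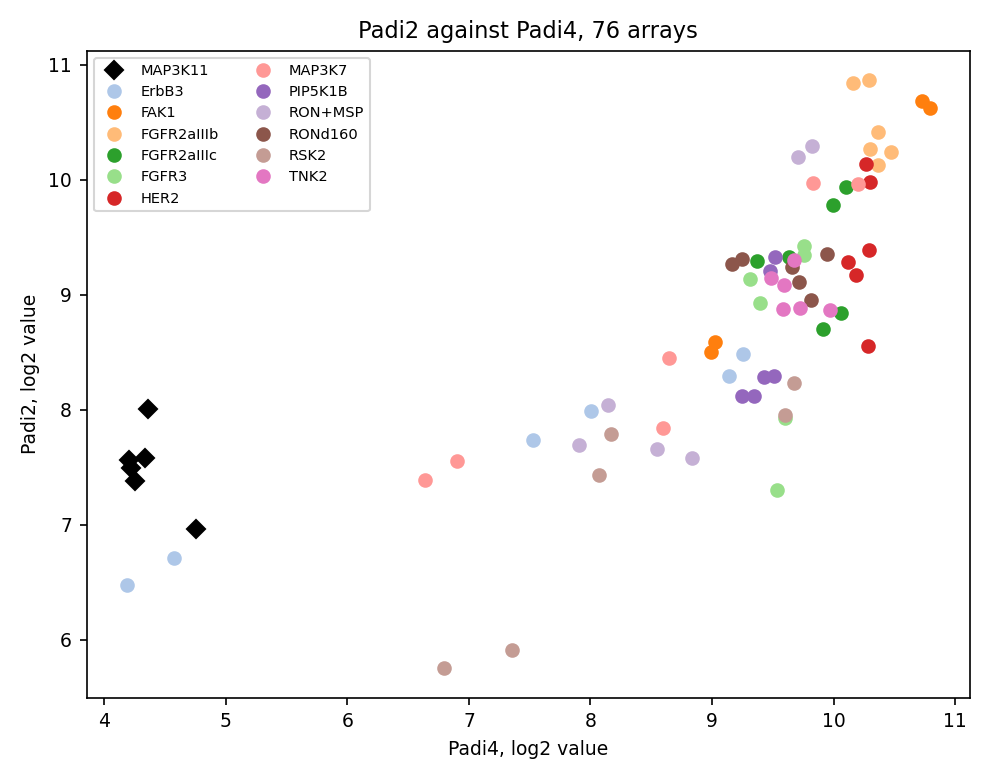
Log2 value of Padi2 (vertical axis) against Padi4 (horizontal axis) in the 76 arrays, coloured by introduced gene, with MAP3K11 as black diamonds. The MAP3K11 arrays stand at 4.21 to 4.76 for Padi4 and 6.96 to 8.01 for Padi2, left of all other arrays but 1 ErbB3 pair, and the 70 other arrays run along a rising band (r = 0.80).

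Padi3, the hair follicle enzyme, was low in most tumours and marked those with RONd160. The 6 RONd160 arrays read between 6.27 and 7.39 with a median of 6.56, and the other 64 arrays of the 12 groups did not exceed 6.01. The highest array outside RONd160 was in FGFR2aIIIc. How many of all genes separate RONd160 from the other groups in this way was not counted, and 9.40% of genes were called for RONd160. RONd160 averaged 6.66 ± 0.42 (SD, n = 6) and differed from the other 11 groups by 1.86 ± 0.14 (SE), limma adjusted p = 1.15e-15 and 2.06e-11. The fitted 3.62-fold is limited by the low end of the array, since the mean of the other 11 groups, 4.82, lay within the range of the 40th percentiles. It was called under every alternative run and in all 79 fits that left out arrays, where the difference lay between 1.60 and 2.04. RON+MSP, the group in which the receptor RON was introduced with its ligand, was at 4.70 ± 0.32 (SD, n = 6); the difference between these groups was not tested.

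HER2 (5.44 ± 0.10, SD, n = 6) and FGFR2aIIIc (5.42 ± 0.45, SD, n = 6) came next for Padi3, with all 6 arrays of each above the 40th percentile. HER2 passed with arrays as replicates (0.50, limma adjusted p = 0.00595) and missed with pairs as a block (adjusted p = 0.0566). ErbB3 was lowest, at 4.40 ± 0.22 (SD, n = 6), and lower than the other 11 groups by limma, -0.63 ± 0.14 (SE), adjusted p = 0.00073 and 0.0135; 0 of its 6 arrays were above the 40th percentile. That call was lost without the pair T1 replicate 2 and T3 replicate 2 (-0.56, adjusted p = 0.0293 and 0.207) and without the pair T2 replicate 1 and T3 replicate 3 (-0.65, adjusted p = 0.00762 and 0.0774). In MAP3K11 Padi3 read between 4.39 and 4.94 and averaged 4.68 ± 0.28 (SD, n = 6), against 4.97, a difference of -0.29, and 40 of the 70 other arrays were at or below its highest array. Without the RONd160 group the difference was -0.13.

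Padi1, the epidermal enzyme, was near the low end in nearly all tumours, and its call rested on 1 pair of arrays. MAP3K7 T1 replicate 2 read 6.37 and MAP3K7 T3 replicate 1 read 6.19, while the other 4 MAP3K7 arrays lay between 4.29 and 4.59. The group averaged 5.03 ± 0.97 (SD, n = 6) and differed from the other 11 groups by 0.56 ± 0.13 (SE), limma adjusted p = 0.0011 and 0.0139. Without that pair the difference was -0.056 and no call (adjusted p = 0.677 and 0.874). The same pair was the highest of its group for Padi2 (9.96 and 9.97) and Padi4 (10.20 and 9.83) and the lowest for Padi3 (4.27 and 4.15). In MAP3K11 Padi1 averaged 4.09 ± 0.12 (SD, n = 6) against 4.52, a difference of -0.43, with 18 of the 70 other arrays at or below its highest array and no MAP3K11 array above the 40th percentile.

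The T label made no difference that could be called. By limma 0 of the 4 members and 0% of genes were called for T2 against T1, and 0 of 4 and 0% for T3 against T1. At an unadjusted p under 0.05 none of the members passed with arrays as replicates, and 1 did for T2 with pairs as a block; over all genes there were 306 for T2 and 654 for T3 with arrays as replicates, and 1006 and 1440 with pairs as a block. After adjustment the fit with pairs called 1 gene, for T3. Member differences lay between -0.17 and 0.06 for T2 and between -0.01 and 0.15 for T3.

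The genes around the cluster were compared between MAP3K11 and the other 12 groups, in which 17.3% of all genes were called higher and 22.1% lower. Within 1 Mb of the Padi genes 35 other genes were measured and 25 tested, of which limma called 4 higher and 3 lower. Their median difference was -0.04, beside -0.01 over all genes. The 3 lower of 25 are a smaller share than the 22.1% of all genes, so the count does not set the neighbourhood apart. Rcc2, a regulator of chromosome condensation family member that ends 4134 bases before Padi6, was at 8.92 ± 0.10 (SD, n = 6) in MAP3K11 against 9.62, a difference of -0.70 ± 0.08 (SE), limma adjusted p = 3.93e-11 and 1.68e-08. Gm13032, a predicted gene that begins 344 bases past Padi3 and overlaps the span of Padi1 by 4531 bases, was at 4.62 ± 0.40 (SD, n = 6) against 5.71, -1.09 ± 0.12 (SE), limma adjusted p = 9.45e-12 and 1.68e-07. In each of these genes 5 of the 6 MAP3K11 arrays were below all 70 others. Arhgef10l, a guanine nucleotide exchange factor gene, differed by -0.62 ± 0.08 (SE), limma adjusted p = 5.35e-09 and 3.82e-06.

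On the other side, Sdhb, a subunit of succinate dehydrogenase that starts 8684 bases past Padi2, was at 11.26 ± 0.12 (SD, n = 6) in MAP3K11 against 11.30, and the difference of -0.04 was no call (limma adjusted p = 0.357 and 0.564). The 4 higher genes were Mfap2 (1.04), Casp9 (0.42), Dnajc16 (0.29) and Szrd1 (0.25). In the ErbB3 pair with low Padi4, Rcc2 read 9.29 and 9.15, against 9.72 to 9.96 in the other 4 ErbB3 arrays. Gm13032 read 5.06 and 5.19 there, and 5.63 to 5.94 in the other 4. Arhgef10l went the other way, at 7.09 and 7.07 in that pair and 6.61 to 6.78 in the other 4. Over the 70 arrays outside MAP3K11 the r with Padi4 was 0.61 for Gm13032, 0.49 for Rcc2, 0.06 for Sdhb and -0.09 for Arhgef10l, and it was 0.83 for Epha2, an ephrin receptor gene of the same window that was no call in MAP3K11 (-0.19, limma adjusted p = 0.235 and 0.347).

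**Figure D4:**
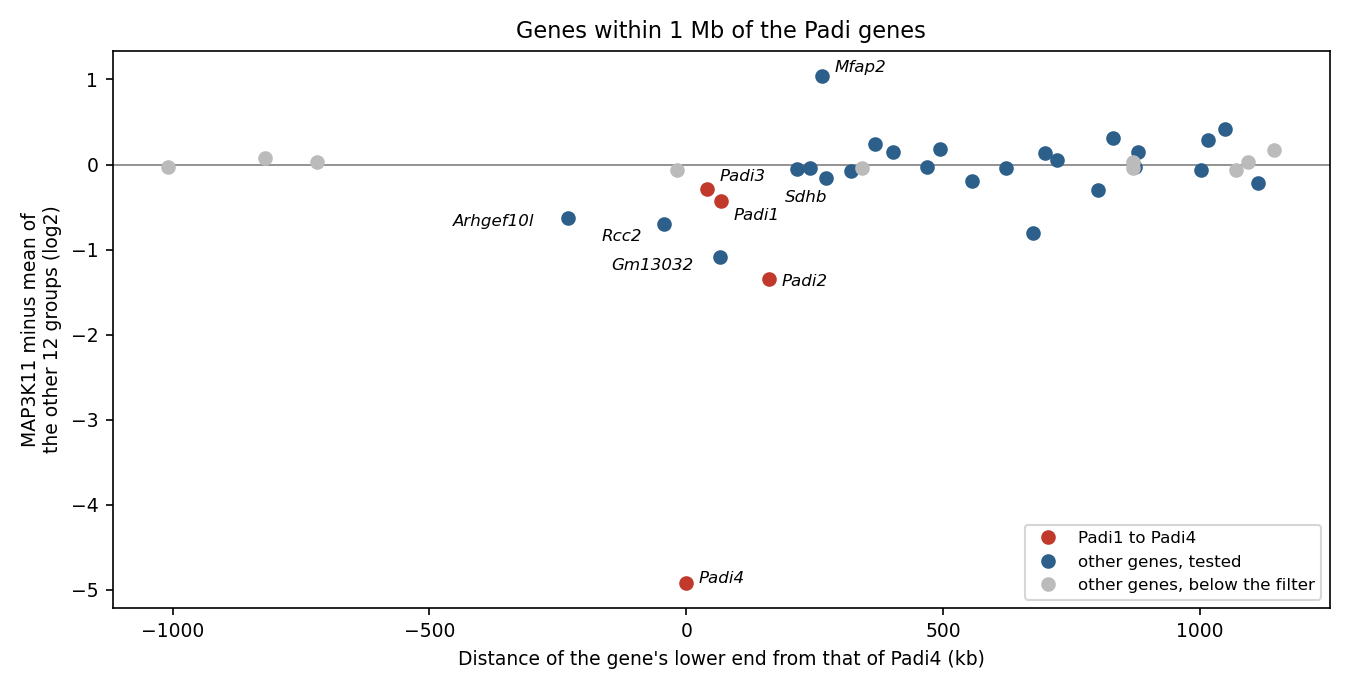
Difference of means between MAP3K11 and the other 12 groups (vertical axis, log2) for genes within 1 Mb of the Padi genes, by the distance of a gene's lower end from that of Padi4 (horizontal axis, kb). Padi4 stands alone at -4.91; the lower neighbours Rcc2, Gm13032 and Arhgef10l lie at -0.62 to -1.09, and Sdhb, next to Padi2, lies near 0.

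Among genes tied to citrullination as many were called higher as lower. Of 22 named, among them Padi6 and reported substrates, 21 were measured and 15 tested; by limma 3 were called higher in MAP3K11 and 3 lower, with a median difference of -0.01, the same as over all genes. The higher ones were Rela (0.50), a subunit of NF-kB, Dnmt3a (0.38), a DNA methyltransferase, and Gsk3b (0.22), a kinase. The lower ones were the chemokines Cxcl12 (-1.64) and Cxcl10 (-1.63) and the nucleolar protein gene Npm1 (-0.34). Flg and Tchh, the filaggrin and trichohyalin genes, and Fga had means under the control level.

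Markers of the cells that could carry the enzymes were read beside them; counts of list genes called in MAP3K11 stand against the 17.3% of all genes called higher and 22.1% called lower. In bulk tumour RNA fewer cells of a type and less RNA per cell cannot be told apart. Of the neutrophil markers, 20 named and 15 tested, limma called 0 between MAP3K11 and the other groups; 2 had an unadjusted p under 0.05 with arrays as replicates and 1 with pairs. Their mean level lay between 5.56 and 6.24 in MAP3K11 arrays and between 5.09 and 6.34 in the others, and its r with Padi4 over 70 arrays was -0.27. The ErbB3 pair with low Padi4 read 6.25 and 6.12 for these markers, near the top of that range. The part of neutrophils in the Padi4 level was not tested.

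**Figure D5:**
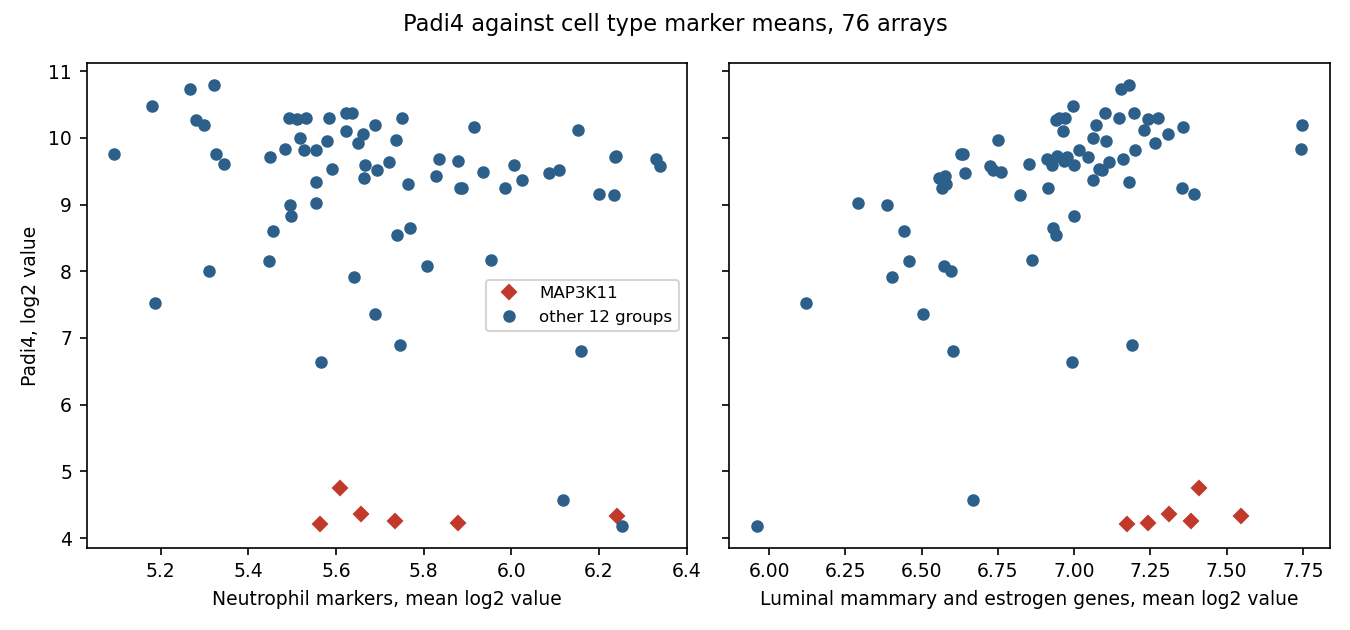
Log2 value of Padi4 (vertical axis) against the mean log2 value of neutrophil markers (left panel) and of luminal mammary and estrogen response genes (right panel) in the 76 arrays, MAP3K11 as red diamonds. MAP3K11 arrays lie at 5.56 to 6.24 on the neutrophil axis, inside the range of the others, and at 7.17 to 7.55 on the luminal axis.

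Luminal mammary and estrogen response genes had a mean between 7.17 and 7.55 in MAP3K11 arrays and between 5.96 and 7.75 in the others, where its r was 0.55 with Padi4 and 0.52 with Padi2. The genes of the list did not go one way. Taken singly, their r with Padi4 ran from -0.51 (Esr1) and -0.43 (Epcam) to 0.71 (Krt8) and 0.81 (Krt18). Of 11 tested, limma called 4 higher in MAP3K11, among them Greb1 (2.64), an estrogen response gene, Krt19 (2.47) and Tnfsf11 (0.87), and 2 lower, the luminal factor gene Gata3 (-2.15) and the estrogen receptor gene Esr1 (-0.91). The MAP3K7 pair with Padi1 read 7.75 and 7.74 on this list, the highest of all arrays, and the ErbB3 pair with low Padi4 read 5.96 and 6.67. Macrophage markers had an r of -0.41 with Padi4. Of these limma called 5 of 12 lower in MAP3K11, led by Ms4a7 (-0.85), Adgre1 (-0.72) and C1qb (-0.70), and 0 higher. Their mean level lay between 9.82 and 10.26 in MAP3K11 arrays, beside a median of 10.45 in the others. The ErbB3 pair with low Padi4 read 10.98 and 11.27, the latter the highest of all arrays. Keratinocyte markers had 2 of 12 called higher, Sprr1a (2.19) and Krt16 (1.21), and 0 lower, about the share of all genes. Skeletal muscle markers had 3 of 15 called lower, Myh1 (-4.35), Eno3 (-3.92) and Acta1 (-3.52), a count again about the share of all genes. Their median difference, however, was -1.95, beside -0.01 over all genes. By limma 11 of the 15 had an unadjusted p under 0.05 with arrays as replicates, and 4 with pairs. Their mean level lay between 4.53 and 4.82 in MAP3K11 arrays. In the others it lay between 4.53 and 10.42, with a median of 5.88. The 2 arrays of the low ErbB3 pair read 9.98 and 4.82 on that list while their Padi4 was 4.18 and 4.57. The part of these cell types in the Padi levels was not tested.

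The genes closest in pattern to each member over the 70 arrays outside MAP3K11 were found by Pearson's r among all tested genes. For Padi4 they were Itga6 (0.90), an integrin subunit of epithelial basement membrane contacts, Itpr3 (0.85), a calcium release channel, and Hmga2 (0.84), a chromatin protein. For Padi2 they were Itga6 again (0.84), the cortical actin protein gene Cttn (0.83) and Clic1 (0.83). For Padi3 they were Gfus (0.75), Anapc16 (0.70) and Gga1 (0.69). For Padi1 they were Oscar (0.79), Hao1 (0.79) and Ocstamp (0.78), with rho of only 0.26, 0.35 and 0.59; the MAP3K7 pair at 6.37 and 6.19 lay far above all other arrays for Padi1. Itga6 was lower in MAP3K11 too, with a mean of 10.99 against 11.72 for the other 12 groups. That gap was far smaller than for Padi4, at 4.35 against 9.27. Itga6 read 10.91 to 11.10 in the 6 MAP3K11 arrays, beside 10.34 and 10.47 in the ErbB3 pair whose Padi4 was as low. Over all 76 arrays, MAP3K11 included, the genes closest to Padi4 were AI467606 (0.90), Galnt1 (0.90) and Ctnnal1 (0.86).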

How the data were processed

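Tumour RNA was measured on 76 Affymetrix arrays of 45101 probe sets, 1 for each sample; 34958 probe sets name 1 gene, 932 several and 9211 none. The deposited values are log2 signals normalized by the authors; per the submitters' processing notes the tool was affy, with no version; the sources used here do not give the method. They were used unchanged. All value columns belong to a sample, and 0 arrays held identical values.

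Groups follow the introduced gene in the labels, and 1 probe set, that of highest mean, stood for each of 18194 genes. Genes above the 40th percentile of their array in at least 4 arrays were tested (13868). A single limma fit took in all arrays (limma 3.58.1, statmod 1.5.0, R 4.3.3) with introduced gene and T label as terms, leaving 61 residual degrees of freedom, with Benjamini-Hochberg adjustment across the genes tested. Pairs were matched on the Pearson correlation of their autosome medians. For the fit with pairs as a random block, the correlation within pairs that limma estimated over the tested genes was 0.628. The scripts were tested on simulated data. The number of arrays limits the precision. Members, lists, comparisons and pairs were chosen with earlier results of these data known. Named genes are the members, the 3 most correlated genes of each, genes within 1 Mb of the cluster, and up to 3 called genes a list and direction. Names and promoters came from RefSeq tables of GRCm38.p6, in which 18033 genes were found.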

Additional observations from a re-analysis of the deposited data

Results flagged for a closer look

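Padi4 in MAP3K11 T3 replicate 1 was at 4.76 (4.757 before rounding), apart from the other 5 MAP3K11 arrays, whose highest was 4.36. The gap was 0.72 of the group's whole range. The array still lay below its 40th percentile, and its pair partner, T1 replicate 1, read 4.21. Of the 52 combinations of a member and a group checked in this way, 1 was set apart, and chance alone sets apart about 5% of them.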

How the results depend on the processing

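The unit of replication decided most. With array pairs as a random block 5054 genes differed among the 12 groups without MAP3K11, against 10877 with arrays as replicates, and with 1 mean per pair, a fit with fewer samples, 2054 did. In that last fit the adjusted p was 0.0636 for Padi4 and 0.164 for Padi1, and 3 of the 48 member tests were calls instead of 7, those of RSK2 for Padi2, RONd160 for Padi3 and ErbB3 for Padi4. Array weights ended the call of MAP3K7 for Padi1 (0.14, adjusted p = 0.397). Over fits that left out arrays, that difference lay between -0.056 and 0.88 and reversed without the pair T1 replicate 2 and T3 replicate 1; without 1 of these arrays it was 0.29 (T1 replicate 2) or 0.33 (T3 replicate 1) and no call. Leaving out pairs was added after the data were seen; in at least 1 such fit each, 6 of the 7 calls ended, all but RONd160 for Padi3. With the replicate number of the titles as a factor, a replicate block, 10846 genes differed and the 7 calls on members stood. The numbers did not pair the arrays, since deviations from the group means had a median r of -0.01 between arrays of the same T label and number in different groups, and -0.00 between others. The differences between MAP3K11 and the other 12 groups kept their direction under every alternative. Since the family was selected on that contrast, this is a description and no independent support. The differences remain untested for the members. These differences lay between -5.11 (without the ErbB3 group) and -4.82 for Padi4, -1.50 and -1.20 for Padi2, -0.49 and -0.38 for Padi1, and -0.34 and -0.13 for Padi3, the last without the RONd160 group. Taking the mean of all probe sets cannot move the members, which have 1 each.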
